A study of Mus musculus with 6 samples.

Results

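CXC chemokines are small secreted proteins that steer leukocytes through G protein-coupled receptors of the CXCR family. 10 of them were followed here by gene symbol (*Cxcl1*, *Cxcl2*, *Cxcl3*, *Cxcl5*, *Ppbp*, *Pf4*, *Cxcl9*, *Cxcl10*, *Cxcl14* and *Cxcl16*), out of 55335 genes in the table, and all 10 passed the filter on low values that left 13367 genes for testing. 9 of the 10 fell in macrophages whose label names *Cd177* KO neutrophils as their culture partners. Of all tested genes, 10.5% were lower and 27.1% higher in the same comparison (adjusted p under 0.05, limma). The interferon-inducible *Cxcl9* and *Cxcl10* and the neutrophil-attracting *Cxcl1*, *Cxcl2*, *Cxcl3* and *Cxcl5* dropped from between 6.34 and 54.5 FPKM to below 2 FPKM in every library, *Cxcl14*, *Cxcl16* and *Ppbp* fell by smaller amounts, and *Pf4*, the most abundant of them, did not pass the test. FPKM is a level corrected for the length of the transcript and for the fragment total of the library.

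The samples were bone marrow-derived macrophages (BMDMs), grown from the bone marrow of *Cd177* WT mice of the C57BL/6 strain for 7 days in 25 ng/ml M-CSF, the growth factor that drives macrophage differentiation. They were kept for 24 h with neutrophils taken by magnetic sorting from the contused spinal cord at 3 dpi (days post-injury), from adult *Cd177* WT mice in 3 samples and from adult *Cd177* KO mice, a purchased Cd177-/- line, in the other 3. There was no sample of BMDMs without neutrophils, and injury, M-CSF and macrophage genotype were common to both groups, so that a level is known only relative to the other neutrophil genotype. The macrophages were recovered by FACS as Ly6G-negative cells before RNA extraction. Nothing in the labels says whether replicates came from separate animals or cultures, so p-values measure the spread between these samples, which may be technical.

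The receptors divide the ligands into roles. CXCL1, CXCL2, CXCL3, CXCL5 and the processed form of the *Ppbp* product act on CXCR2, the main chemoattractant receptor of neutrophils. *Cxcl1*, *Cxcl2*, *Cxcl3* and *Cxcl5* are classical targets of NF-κB in activated macrophages. CXCL9 and CXCL10 act on CXCR3 of activated T cells and NK cells, and their genes are induced by interferons. PF4 (platelet factor 4) is known from platelet granules, CXCL14 is made by many resting tissues, and CXCL16 is a membrane-anchored ligand of CXCR6 that also binds oxidized lipid.

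The libraries had an implied depth of 17600000 to 20300000 fragments, estimated from the steps between low FPKM values, and correlated at 0.967 or more within a group and at 0.905 to 0.917 across groups (Pearson's r across tested genes, which are not independent replicates). Macrophage markers were abundant in all 6. They summed to 7707 to 9239 FPKM in the WT-labelled co-cultures and to 9987 to 10986 FPKM in the KO-labelled ones. The largest part was *Lyz2*, at 4462 to 5731 against 5881 to 6588 FPKM, which did not pass the test. Of the 11 markers, all tested, 1 was lower, 4 were higher (10.5% and 27.1% of all tested genes) and 6 did not pass. The lower one was *Fcgr1* (log2 difference -1.83, adjusted p = 7.16e-06, limma). The rises of *Adgre1*, *Mertk* and *C1qc* were lost in 10, 3 and 1 of 16 alternatives. *Cd177* itself, which marks neutrophils and not macrophages, stood at 0.544, 0.309 and 0.521 FPKM in the WT-labelled co-cultures and at 1.79, 1.84 and 2.28 FPKM in the KO-labelled ones, a log2 difference of 1.37 against the direction of the labels. The knockout lies in the neutrophils, which were to be removed, but neutrophil markers were still listed in both groups. Whether the *Cd177* values come from such cells was not tested. The part of the gene that is deleted was not given in the sources used here, so this level is no check of the labels. Groups are named below by their labels, and all directions rest on them.

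Promoter sequences are shown first for the ligands whose fall was steepest, to show where known regulatory words lie in them, and for *Pf4* as the neighbour that did not pass the test. RefSeq (GRCm38.p6) gave a window for 8 of the 10 genes, with 250 bases before and 50 after the start. The lines give the stretch that ends 1 base before the start, 5′ to 3′ on the strand of the gene. Capitals mark matches to the NF-κB consensus (searched by name on both strands) or to the interferon-stimulated response core GAAANNGAA.
*Cxcl1*, chr5:90891145-90891244, plus strand: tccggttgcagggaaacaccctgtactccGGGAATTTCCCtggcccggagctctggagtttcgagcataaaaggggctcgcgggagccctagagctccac
*Cxcl2*, chr5:90903799-90903898, plus strand: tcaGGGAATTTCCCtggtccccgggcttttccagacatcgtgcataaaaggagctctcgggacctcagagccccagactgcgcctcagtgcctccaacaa
*Cxcl3*, chr5:90786001-90786100, plus strand: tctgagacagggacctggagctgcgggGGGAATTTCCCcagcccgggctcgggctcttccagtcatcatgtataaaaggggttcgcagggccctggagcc
*Cxcl9*, chr5:92328080-92328279, minus strand: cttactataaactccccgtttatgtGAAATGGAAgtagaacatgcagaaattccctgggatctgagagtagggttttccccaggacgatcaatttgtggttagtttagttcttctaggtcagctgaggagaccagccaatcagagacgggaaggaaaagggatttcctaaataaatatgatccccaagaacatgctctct
*Cxcl10*, chr5:92348890-92349109, minus strand: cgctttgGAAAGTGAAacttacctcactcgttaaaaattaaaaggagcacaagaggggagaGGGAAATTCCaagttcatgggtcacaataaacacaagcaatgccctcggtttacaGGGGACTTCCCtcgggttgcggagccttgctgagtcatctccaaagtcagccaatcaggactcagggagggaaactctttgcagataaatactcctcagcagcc
*Pf4*, chr5:90772335-90772434, plus strand: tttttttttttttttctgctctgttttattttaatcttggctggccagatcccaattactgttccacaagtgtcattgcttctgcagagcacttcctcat

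*Cxcl1*, *Cxcl2* and *Cxcl3* carried the same 11-base word GGGAATTTCCC, which begins at -71, -97 and -73 relative to the start and holds overlapping matches to the NF-κB consensus on both strands. This word was read off these promoters, so the share of windows that hold it is a description. It was present in 14 of 32851 promoter windows of this length (0.0426%), theirs included. Any match to the consensus was present in 2779 (8.46%). *Cxcl10* had the consensus at -159 and again, as overlapping matches, from -104 to -94, together with the response core from -213 to -205. *Cxcl9* had the response core from -175 to -167, which 2812 windows (8.56%) also held. *Cxcl14* had the response core as well. A further motif, TTCNNNGAA (GAS), was also searched and matched only in *Cxcl14*, from -191 to -183. It was present in 2726 windows (8.30%). None of these motifs matched in the windows of *Ppbp* and *Pf4*. *Cxcl5* and *Cxcl16* had no window. A match describes the letters and does not show a bound site.

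Among the 13367 genes tested with limma on log2(FPKM + 0.5), an adjusted p-value under 0.05 was reached by 1408 (10.5%) that were lower and by 3619 (27.1%) that were higher with KO-labelled neutrophils, and the median log2 difference of all tested genes was 0.19. The split depends on scaling: with median-of-ratios scaling, which moved that median to -0.01, 2259 genes were lower and 2057 higher, and with quantile normalization 1928 and 2426. 9 of the 10 CXC chemokines were lower and none was higher, under the main scaling and both of these. In 9 of them every library labelled WT stood above every library labelled KO, which 1931 genes (14.4%) did, and in none was the order reversed, which held for 5006 genes (37.5%). The median log2 difference was -5.84 for the interferon-inducible pair, -3.93 for the 4 neutrophil-attracting ligands, -1.87 for *Cxcl14* and *Cxcl16* and -0.76 for *Ppbp* and *Pf4*. The size of the log2 difference understates the change of low genes, because 0.5 FPKM was added to every value. In bulk RNA, fewer expressing cells and less RNA per cell cannot be told apart.

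**Figure D1:**
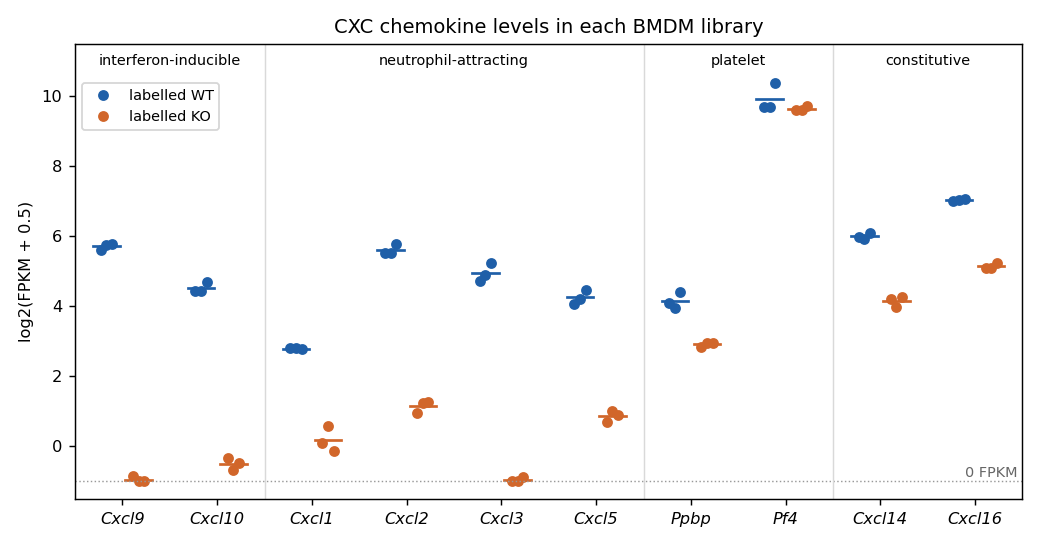
Level of each CXC chemokine in each library, as log2(FPKM + 0.5), grouped by role. Points are the 3 WT-labelled libraries and the 3 labelled KO, bars are group means, and the dotted line is 0 FPKM. The groups are apart for every gene except *Pf4*, and the KO points of *Cxcl9* and *Cxcl3* lie on or just above the 0 line.

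Both interferon-inducible ligands fell to less than 1 FPKM. *Cxcl9* stood at 48.7, 53.2 and 54.5 FPKM in the WT-labelled co-cultures and at 0.0563, 0 and 0 FPKM in the KO-labelled ones. Converted with the implied depth, which is approximate because whole fragments could not be recovered from the table, the highest of these KO values is worth about 3 fragments, so the gene was listed at or near 0 throughout that group. Its log2 difference of -6.66 (SE 0.0981, adjusted p = 3.17e-07, limma) had rank 3 among all falls and depended on the added constant, from -8.81 with 0.1 FPKM to -5.70 with 1 FPKM, so no fold is given.

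*Cxcl10* had 21.1, 21.2 and 25.4 FPKM in the WT-labelled co-cultures against 0.299, 0.129 and 0.217 FPKM in the KO-labelled ones. By the same approximate conversion the KO values correspond to about 12, 6 and 9 fragments, above 0 in every library but thinly covered. The ratio of group means was 105, between 70.5 for the closest pair of libraries and 197 for the most distant, and the log2 difference was -5.01 (SE 0.133, adjusted p = 2.08e-06, limma). *Cxcl10* lies within the span of *Art3*, which runs on the opposite strand and was listed at 0.0141 FPKM at most, and whether the counting used strand was not given in the sources used here.

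Among the neutrophil-attracting ligands, *Cxcl3* fell the most. It stood at 26.1, 29.5 and 37.4 FPKM in the WT-labelled co-cultures and at 0, 0 and 0.0446 FPKM in the KO-labelled ones, where the only value above 0 is worth roughly 3 fragments. The log2 difference of -5.92 (SE 0.147, adjusted p = 1.86e-06, limma) had rank 4 among the falls of all genes and ran from -8.09 to -4.96 with the added constant. The fall of *Cxcl3* thus lay between those of *Cxcl9* and *Cxcl10*, and the neutrophil-attracting and interferon-inducible classes overlapped in the size of their differences.

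*Cxcl2*, the most abundant of the neutrophil-attracting ligands in the WT-labelled co-cultures, had 45.9, 45.7 and 54.3 FPKM there and 1.45, 1.84 and 1.89 FPKM in the KO-labelled ones. All KO values were well above the level of single fragments, and the ratio of means was 28.2 (24.2 to 37.6 over pairs of libraries). The log2 difference was -4.47 (SE 0.121, adjusted p = 2.08e-06, limma).

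*Cxcl5* stood at 16.4, 18.0 and 21.9 FPKM against 1.11, 1.5 and 1.36 FPKM, a ratio of means of 14.2 and a log2 difference of -3.40 (SE 0.140, adjusted p = 9.94e-06, limma). *Cxcl1* was the lowest of the 10 in the WT-labelled co-cultures, with 6.46, 6.46 and 6.34 FPKM, and had 0.571, 0.986 and 0.409 FPKM in the KO-labelled ones. The tight WT values contrast with a more than 2-fold spread among the KO values, which correspond to roughly 19, 37 and 14 fragments by the same conversion. The ratio of means was 9.80 and the log2 difference -2.61 (SE 0.185, adjusted p = 0.000102, limma). The coding regions of *Cxcl1*, *Cxcl2* and *Cxcl3* are related in sequence, and how fragments matching more than 1 of them were counted was not given in the sources used here.

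*Cxcl14* and *Cxcl16*, the ligands taken as constitutive, were not held constant. *Cxcl16* had 130, 132 and 134 FPKM in the WT-labelled co-cultures and 34.0, 33.9 and 37.6 FPKM in the KO-labelled ones, and *Cxcl14* had 62.3, 60.3 and 68.2 FPKM against 18.0, 15.4 and 18.6 FPKM. Both kept a clear level in the KO-labelled co-cultures. The ratios of means were 3.76 for *Cxcl16* (log2 difference -1.90, SE 0.0777, adjusted p = 9.82e-06, limma) and 3.66 for *Cxcl14* (log2 difference -1.85, SE 0.102, adjusted p = 3.23e-05, limma).

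The pair known from platelets parted. *Ppbp*, which encodes the precursor of the CXCR2 ligand NAP-2, had 16.8, 15.1 and 20.6 FPKM in the WT-labelled co-cultures and 6.69, 7.23 and 7.27 FPKM in the KO-labelled ones, a ratio of means of 2.48 and a log2 difference of -1.24 (SE 0.126, adjusted p = 0.000471, limma). *Pf4* had 829, 832 and 1327 FPKM against 783, 781 and 845 FPKM. The groups overlapped, since KO replicate 3 lay above WT replicates 1 and 2, and WT replicate 3 stood alone. The log2 difference of *Pf4* was -0.27 (95% interval -0.73 to 0.18, adjusted p = 0.300, limma), so that a fall as large as that of *Ppbp* lay outside the interval, and without WT replicate 3 the difference was -0.05 (adjusted p = 0.573). *Itgb3* and *Treml1* were the only tested genes of 10 platelet and megakaryocyte markers and neither passed the test, although *Itgb3* (log2 difference -0.32) was called lower in 4 alternatives and *Treml1* (0.37) higher under the replicate block. Their list summed to 8.32 to 10.8 FPKM in the WT-labelled co-cultures and to 9.29 to 10.5 FPKM in the KO-labelled ones, while the platelet gene *Gp6* stayed at or below 0.0368 FPKM in all 6.

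**Figure D2:**
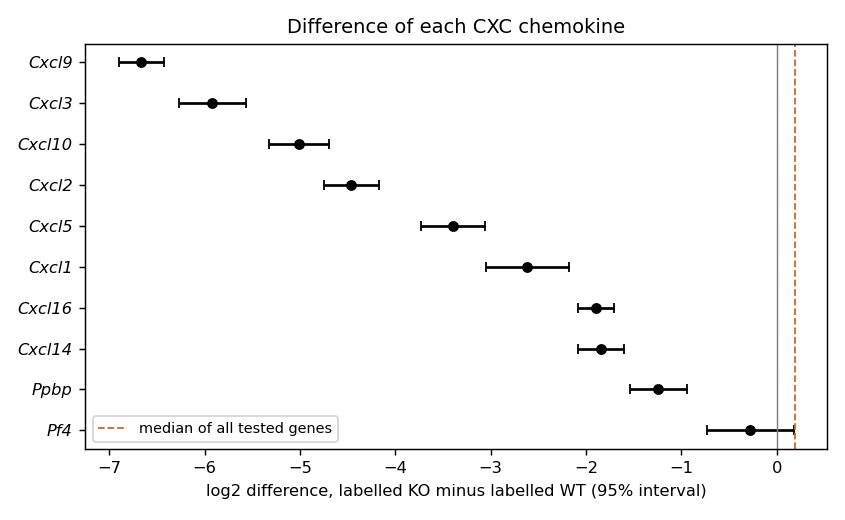
Log2 difference of each CXC chemokine, KO-labelled libraries minus WT-labelled libraries on log2(FPKM + 0.5), with its 95% interval from limma (n = 3 per group). The 9 intervals from *Cxcl9* to *Ppbp* lie below 0, that of *Pf4* includes 0, and the dashed line is the median of all tested genes, 0.19.

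Ordered by size, the falls ran *Cxcl9*, *Cxcl3*, *Cxcl10*, *Cxcl2*, *Cxcl5*, *Cxcl1*, *Cxcl16*, *Cxcl14*, *Ppbp* and *Pf4*. The closest neighbours were *Cxcl16* and *Cxcl14*, whose 95% intervals overlapped almost entirely and whose log2 ratio within a library ran from 0.97 to 1.12 in the WT-labelled co-cultures and from 0.89 to 1.11 in the KO-labelled ones. The intervals of the other neighbours are given as a description, since the order was itself taken from these differences. The steps between *Cxcl9*, *Cxcl3*, *Cxcl10* and *Cxcl2* depend on the added constant, because the first 3 lie near 0 in the KO-labelled co-cultures. With 0.1 and 1 FPKM added, the difference ran from -6.20 to -4.27 for *Cxcl10* but only from -4.74 to -4.19 for *Cxcl2*, so that these 2 were apart with the smaller constant and nearly level with the larger.

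The order of the levels themselves, which FPKM allows because it is per length, changed between the groups. In the WT-labelled co-cultures, *Pf4* was followed by *Cxcl16*, *Cxcl14*, *Cxcl9*, *Cxcl2*, *Cxcl3*, *Cxcl10*, *Cxcl5*, *Ppbp* and *Cxcl1*, and the ranges of *Cxcl9* and *Cxcl2*, of *Cxcl10* and *Cxcl5*, and of *Cxcl5* and *Ppbp* overlapped. In the KO-labelled ones, *Pf4*, *Cxcl16* and *Cxcl14* still led, *Ppbp* came next, and *Cxcl2*, *Cxcl5*, *Cxcl1*, *Cxcl10*, *Cxcl9* and *Cxcl3* followed, with overlap between *Cxcl2* and *Cxcl5* and between *Cxcl9* and *Cxcl3*. *Cxcl9* therefore moved from rank 4 to rank 9 and *Ppbp* from rank 9 to rank 4.

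The 9 ligands without *Pf4* summed to 373, 382 and 423 FPKM in the WT-labelled co-cultures and to 62.2, 60.9 and 67.4 FPKM in the KO-labelled ones. The makeup of this sum shifted towards *Cxcl16*, whose share was 31.7% to 34.8% in the WT-labelled co-cultures and 54.6% to 55.8% in the KO-labelled ones, and towards *Cxcl14* (15.8% to 16.7% against 25.3% to 29.0%) and *Ppbp* (3.97% to 4.89% against 10.8% to 11.9%). *Cxcl9* gave 12.9% to 13.95% of the sum in the WT-labelled co-cultures and at most 0.0905% in the KO-labelled ones. *Cxcl2* gave 12.0% to 12.9% against 2.33% to 3.02%. *Pf4* alone made up 68.5% to 75.9% of the sum of all 10 in the WT-labelled co-cultures and 92.6% to 92.8% in the KO-labelled ones.

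8 of the 10 genes lie on chromosome 5 (GENCODE M21, GRCm38), while *Cxcl14* is on chromosome 13 and *Cxcl16* on chromosome 11. In the order *Cxcl5*, *Ppbp*, *Pf4*, *Cxcl3*, *Cxcl1*, *Cxcl2*, the gaps between neighbours were 6.89, 2.37, 12.7, 102 and 10.8 kb. *Pf4*, which did not pass the test, therefore sits 2.37 kb from *Ppbp* and 12.7 kb from *Cxcl3*, the gene with the steepest fall of this cluster. *Cxcl15*, between *Cxcl3* and *Cxcl1*, was listed at 0 in all 6 libraries. *Mthfd2l*, the first gene past *Cxcl2*, encodes a mitochondrial folate enzyme and had a log2 difference of 0.28 (adjusted p = 0.137, limma).

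*Cxcl9* and *Cxcl10* lie 18.6 kb apart on the minus strand, 1415 kb from *Cxcl2*. Next to them, *Sdad1* had a log2 difference of -0.25 (adjusted p = 0.110, limma) and *Naaa* one of 0.27 (adjusted p = 0.0960, limma). Neither passed the test, so the calls of this cluster were those of the 2 chemokines. *Cxcl11*, another CXCR3 ligand, annotated as a polymorphic pseudogene, was listed at 0.0139, 0.130 and 0.0146 FPKM in the WT-labelled co-cultures and at 0 in the KO-labelled ones.

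**Figure D3:**
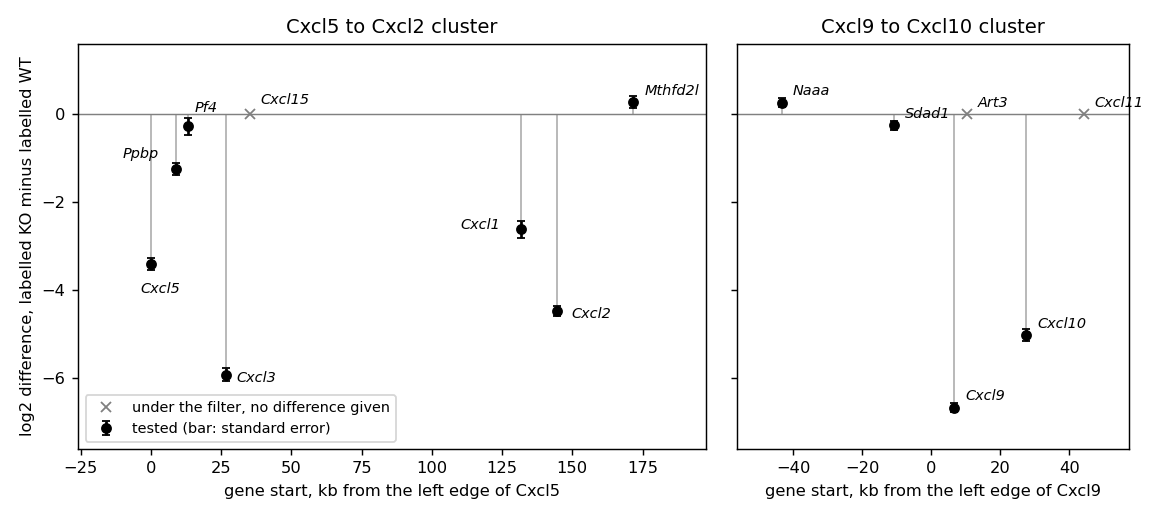
Log2 difference (KO-labelled libraries minus labelled WT) of the genes in and next to the chemokine clusters of chromosome 5, against the distance of the gene start from the left edge of *Cxcl5* (left) or *Cxcl9* (right) in kb. Points are tested genes with their standard error, crosses are genes under the filter. *Pf4* lies near 0 between *Ppbp* (-1.24) and *Cxcl3* (-5.92), and the outer neighbours lie between -0.25 and 0.28.

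Of the 5 remaining CXC ligands, only *Cxcl12* was tested. This ligand of CXCR4 stood at 3.14, 2.76 and 2.33 FPKM in the WT-labelled co-cultures and at 15.8, 14.8 and 13.0 FPKM in the KO-labelled ones, and rose with a log2 difference of 2.22 (SE 0.129, adjusted p = 4.06e-05, limma), opposite to the 9 ligands above. *Cxcl13* and *Cxcl17* were listed at 0 in every library. *Cxcl12* and *Cxcl14* are also known from stromal cells, and of 9 stromal and endothelial markers 7 were tested, 4 of them lower and none higher (10.5% and 27.1% of all tested genes, and the call of *Pdgfrb* was lost in 7 alternatives), with summed levels of 418 to 597 FPKM in the WT-labelled co-cultures and 493 to 555 FPKM in the KO-labelled ones. The most abundant of these markers, *Col1a1* (361, 330 and 228 against 337, 344 and 292 FPKM), did not pass the test. Nor did *Col1a2* (142, 136 and 113 against 165, 162 and 155 FPKM), though it was called higher in 2 alternatives. The 4 lower markers were *Col3a1* (log2 difference -0.97), *Dcn* (-1.04), *Kdr* (-1.03) and *Pdgfrb* (-0.68). *Tie1* stayed at or below 0.0630 FPKM and *Cdh5* at or below 0.711 FPKM, and the part of such cells in either ligand was not tested.

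Of 8 CXC receptors, 4 were tested, 2 of them lower and 2 higher, where 10.5% and 27.1% of all tested genes were. *Cxcr3*, the receptor of CXCL9 and CXCL10, was listed at 0, 0 and 0.0641 FPKM in the WT-labelled co-cultures and at 2.49, 1.85 and 2.40 FPKM in the KO-labelled ones (log2 difference 2.39, adjusted p = 6.46e-05, limma), and so rose where its ligands fell. *Cxcr2*, the receptor of the neutrophil-attracting ligands, rose from 0.393, 0.467 and 0.286 FPKM to 1.24, 1.35 and 0.882 FPKM (log2 difference 0.90, adjusted p = 0.00634, limma). *Cxcr4* was the only abundant receptor, with 68.3, 77.0 and 71.3 FPKM against 52.0, 51.3 and 49.0 FPKM (log2 difference -0.50, adjusted p = 0.00331, limma). *Cxcr6*, the receptor of CXCL16, was low at 0.763, 1.16 and 0.937 against 0.411, 0.558 and 0.169 FPKM (log2 difference -0.74, adjusted p = 0.0326, limma), and this call was lost in 7 alternatives, with an adjusted p-value of at most 0.0980.

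Most tested neutrophil transcripts moved opposite to the ligands that attract neutrophils. Of 15 neutrophil markers 11 were tested, and 10 were higher and 1 lower with KO-labelled neutrophils (27.1% and 10.5% of all tested genes). The rise of *S100a8* was lost in 4 alternatives. The lower marker was *Mmp8* (log2 difference -1.12), which is also on the list of proteases below. The list summed to 189 to 250 FPKM in the WT-labelled co-cultures and to 542 to 557 FPKM in the KO-labelled ones. *Ly6g*, the sort marker, had 0 FPKM in each WT-labelled library and at 0.660, 0.547 and 0.403 FPKM in the KO-labelled ones, and *Ngp*, a granule gene, was at 10.7, 12.6 and 15.3 FPKM against 105, 106 and 110 FPKM. *Cxcr2* and *Cd177* are neutrophil genes and rose with these markers, and the part of neutrophil RNA in the receptor and ligand values was not tested. Of 9 lymphocyte markers only *Cd4*, which macrophages can also express, was tested, and it was higher, while *Cd3e* stayed at or below 0.0321 FPKM. Of 9 spinal cord markers 2 were tested, with a summed list of 15.9 to 18.2 FPKM in the WT-labelled co-cultures and 20.1 to 21.9 FPKM in the KO-labelled ones. *Tubb3* was higher (10.2, 12.3 and 11.3 against 14.4, 14.8 and 14.3 FPKM, log2 difference 0.36, lost in 7 alternatives), *Mbp* at 4.47 to 6.89 FPKM did not pass the test, and *Aqp4*, *Mog* and *Snap25* were listed at 0 in every library. The part of such cells in the ligand values was not tested, and none of 6 dendritic cell markers was tested.

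The genes that act upstream of both ligand classes were described from lists of interferon signalling and of NF-κB and mRNA decay regulators. Of 12 tested interferon signalling genes 5 were lower, 2 were higher (10.5% and 27.1% of all tested genes) and 5 did not pass the test, with a median log2 difference of -0.13 against 0.19 for all tested genes. The lower genes included the transcription factors *Irf7* (40.5, 41.6 and 41.9 against 2.55, 2.74 and 2.19 FPKM, log2 difference -3.81), *Stat2* (37.1, 41.2 and 20.6 against 4.85, 5.01 and 3.87 FPKM, -2.67) and *Irf1* (45.5, 44.9 and 52.4 against 11.1, 11.6 and 12.0 FPKM, -1.99). These factors were low in the same libraries as *Cxcl9* and *Cxcl10*. *Ifngr1*, a chain of the receptor for interferon gamma, was higher (13.5, 15.2 and 11.2 against 57.8, 60.5 and 43.9 FPKM, log2 difference 1.98), and *Ifnb1* and *Ifng*, which encode interferons, did not exceed 0.105 FPKM in any library. The small fall of *Irf9* (-0.33) was lost in 6 alternatives, and the rise of *Jak1* (0.45) was lost under median-of-ratios scaling.

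Of 13 NF-κB and mRNA decay regulators, all tested, 5 were lower, 2 were higher (again against 10.5% and 27.1%) and 6 did not pass the test, with a median log2 difference of -0.15. The subunits *Nfkb1*, *Nfkb2*, *Rela*, *Relb* and *Rel* had log2 differences between -0.25 and 0.23 and none passed the test, while *Nfkbia* (-1.03) and *Tnfaip3* (-1.08), inhibitors of the pathway that NF-κB itself induces, fell. *Relb* was called lower in 4 alternatives, among them 3 of the scalings. *Cebpb*, a transcription factor of myeloid inflammatory genes, had 431, 421 and 578 FPKM in the WT-labelled co-cultures and 125, 117 and 163 FPKM in the KO-labelled ones (log2 difference -1.82), whereas its relative *Cebpd* rose (1.51). Of the genes whose products destabilize chemokine mRNA, *Zc3h12a* fell (-1.24), *Zfp36l1* rose (1.11), and the small fall of *Zfp36* (-0.27) was lost in 4 of the 6 fits that left out a library. Of 5 tested proteases that cleave or shed chemokines, *Mmp8* fell (21.8, 24.5 and 19.5 against 9.88, 10.2 and 9.27 FPKM, log2 difference -1.12). *Mmp12*, the most abundant, had 262, 274 and 304 against 226, 225 and 254 FPKM (-0.25) and was called lower in 4 alternatives only, *Mmp9* (0.27) was called higher under the replicate block only, and *Adam10* and *Adam17*, which release CXCL16 from the membrane, did not pass the test.

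**Figure D4:**
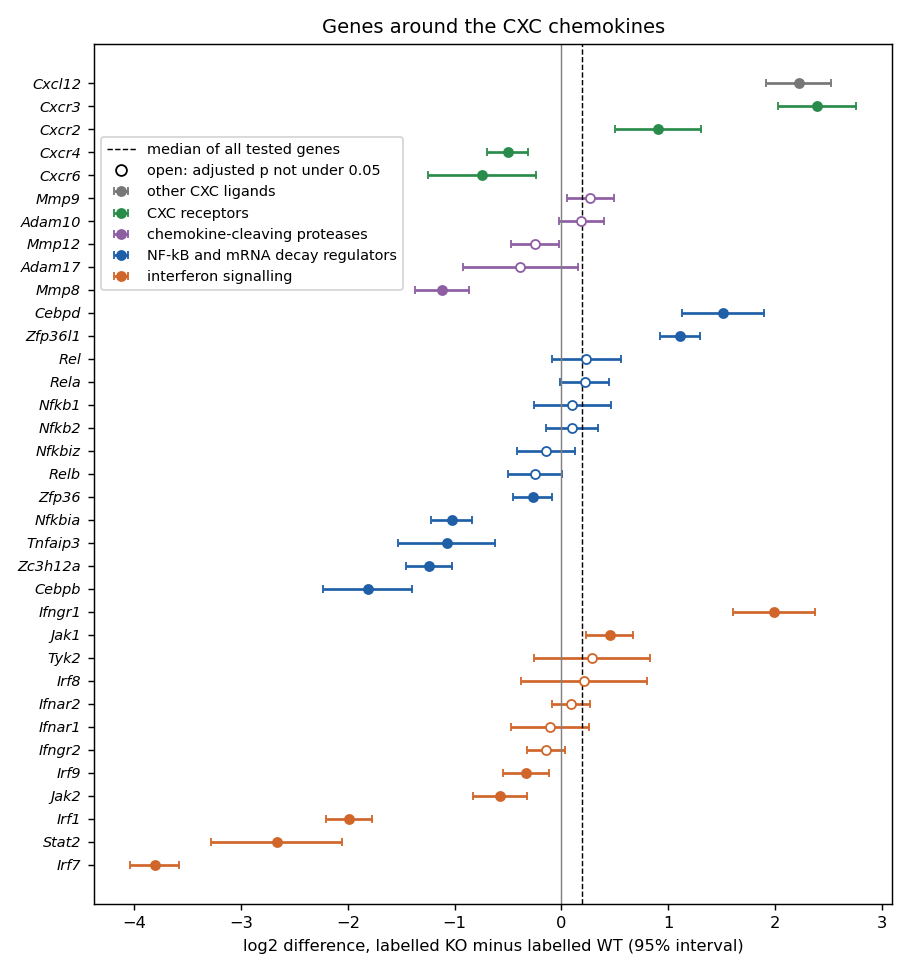
Log2 difference (KO-labelled libraries minus labelled WT, with 95% interval from limma, n = 3 per group) of tested genes around the CXC chemokines, coloured by list. Filled points have an adjusted p-value under 0.05 and open points do not. *Irf7*, *Stat2* and *Irf1* lie farthest to the left and *Cxcr3* and *Cxcl12* farthest to the right, with the median of all tested genes dashed at 0.19.

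The genes most like each ligand were taken as those with the smallest root mean square distance between centred log2 profiles over the 6 libraries. *Cxcl3* was nearest to *Rsad2* (distance 0.204) and *Ifit2* (0.249), and *Cxcl9* to *Cxcl3* (0.396) and *Rsad2* (0.480). *Cxcl1* was nearest to *Herc6* (0.160) and *Ifi208* (0.164), and *Cxcl2* to *Htra4* (0.107) and *Gbp3* (0.114). *Cxcl5* was nearest to *Tgtp1* (0.0933) and *Ifi44* (0.105), and *Cxcl10* to *Ass1* (0.180) and *AW112010* (0.197). The neighbours of *Cxcl14* were *Slc22a4* (0.0645) and *Smpdl3b* (0.0697), and those of *Cxcl16* were *Hbegf* (0.0584) and *Trim30a* (0.0594). Those of *Ppbp* were *Pla2g16* (0.0558) and *Clec4n* (0.0601), and those of *Pf4* were *Rpl36al* (0.0342) and *Prdx2* (0.0356). All points of a profile share the same 6 libraries, and a distance is small where the difference between the groups is of like size.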

How the data were processed

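The authors deposited FPKM values per gene for 55335 unversioned mouse Ensembl identifiers in 6 libraries (3 per group). The labels' processing notes name fastp 0.17.1, HISAT2 2.1.0, DESeq2 1.18.1 and R 3.4.3, while the counting tool, annotation and genome build are not given in the sources used here. Labels and methods name different RNA reagents, library kits and sequencers. Symbols were attached from a reference list of gene names for 55154 identifiers (99.7%). Gene positions and exon lengths came from GENCODE M21. FPKM is scaled to the library, so a change in abundant genes shifts all others, and column sums ran from 302532 to 340717. Low FPKM values were whole multiples of the step, within a tolerance of 0.1, in only 39.6% to 43.5% of cases (20% by chance), so whole reads were not recovered and no count test was run. Log2(FPKM + 0.5) was tested with limma 3.58.1 in R 4.3.3 (lmFit, eBayes with trend, two-sided) in 13367 genes that averaged 0.5 FPKM or more, with Benjamini-Hochberg adjustment over all of them and a threshold of 0.05. The fits were checked on simulated data. Python 3.11.15, pandas 2.3.3, numpy 2.4.6 and matplotlib 3.10.9 served the other steps. The named genes were the CXC chemokines, members of the lists, cluster neighbours and the nearest profiles. The members and lists were chosen with earlier results of these data known. A gene of the interferon signalling list is not reported here.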

Additional observations from a re-analysis of the deposited data

How the results depend on the processing

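The 9 falls and the lack of a call for *Pf4* held in all 16 alternatives (15 for *Cxcl1*, which a mean of at least 5 FPKM removed), with pseudocounts of 0.1 and 1, other filters, other scalings, a robust variance, a replicate block, and each library left out. The log2 difference of *Pf4* ranged from -0.50 to -0.05 and that of *Ppbp* from -1.46 to -1.12. Whether equal replicate numbers mark paired samples was not settled. The deviations of same-numbered libraries correlated at 0.116, 0.0360 and 0.264, and those of different-numbered libraries at -0.233 to 0.160. The replicate block gave 1681 genes lower and 4253 higher with 9 of the ligands lower. Counts over all genes moved with a mean of at least 5 FPKM (1756 higher), with median-of-ratios scaling (2259 lower, 2057 higher) and with a fold change above 2 at an unadjusted p-value under 0.05 (592 lower, 893 higher), where 8 instead of 13 genes around the ligands were lower. The implied depth limits *Cxcl9* and *Cxcl3* in the libraries labelled KO, where values rest on 3 fragments or fewer. The cause of these shifts was not tested.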
